A study of Mus musculus with 16 samples.

Results

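The nuclear-encoded genes of the mitochondrial respiratory chain were followed in single bone marrow progenitor cells of the mouse. Members were all genes whose symbol starts with Nduf, Uqcr or Atp5, the succinate dehydrogenase genes Sdha, Sdhb, Sdhc and Sdhd, and genes whose symbol starts with Cox4i, Cox5, Cox6, Cox7 or Cox8, leaving out pseudogene entries (names holding -ps). The rule used names only and found 93 of 52542 gene entries. By known function, 36 belong to complex I, 4 to complex II, 8 to complex III, 20 to complex IV and 15 to complex V, and 10 are assembly factors or factors related to the ATP synthase. They were set beside the 13 mRNAs that the mitochondrial genome encodes.

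The samples were 16 plate libraries of LSK cells, the lineage-negative Sca1+ Kit+ fraction of the bone marrow that holds stem cells and multipotent progenitors, on the C57BL/6J strain. The recipients were lethally irradiated CD45.1/CD45.2 mice given equal parts of control fetal liver cells (CD45.1) and of fetal liver cells lacking both Regnase-1 and Regnase-3 (CD45.2), and cells were sorted 4 weeks later. All 16 libraries carry 1 set of labels, and neither the genotype of a cell nor the mouse behind a library is given, so control and knockout cells were not compared. Libraries are numbered in accession order, a name without meaning. P-values below therefore measure the spread between plates, which may be technical.

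The respiratory chain sits in the inner mitochondrial membrane. Complexes I and II take electrons from NADH and succinate, ubiquinone carries them to complex III and cytochrome c to complex IV, where oxygen is reduced, and the proton gradient built on the way drives ATP synthesis by complex V. Complexes I, III, IV and V are assembled from proteins of both genomes, while complex II is wholly nuclear-encoded. Quiescent haematopoietic stem cells are known for leaning on glycolysis, and their exit towards lineage-committed progenitors is known to go with greater use of oxidative phosphorylation.

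MARS-seq counts transcripts at their 3′ ends by unique molecular identifiers (UMIs), so a level needs no correction for gene length and is given in CPM, the UMIs of a gene in every 1000000 UMIs of the library or cell class. Per library, 521440 to 822530 UMIs were counted, and 295 to 345 cells were kept, 5157 in all. The median kept cell of a library held 1146 to 1993 UMIs. Kit (128 to 210 CPM) and Ly6a, the gene of Sca1 (133 to 283), were detected in every library, while the lineage genes Cd3e and Ly6g had no UMI. Zc3h12a and Zc3h12c, the genes of Regnase-1 and Regnase-3, had 93 and 77 UMIs in all; without genotypes, and with 3′ ends that may lie outside a deletion, they check nothing here. The members took up 197335 of 10437310 UMIs of the kept cells, or 1.89%, and the mitochondrially encoded mRNAs 2.72%. The median kept cell held 28 member UMIs, and no kept cell was without one. The 60 wells listed as empty held 23 member UMIs together.

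Levels differed between the complexes in the order V, IV, III, I, II. The median member had 390 CPM in complex V, 233 in complex IV, 227 in complex III, 163 in complex I and 149 in complex II, against 23.2 among the assembly and related factors. The complex IV median counts the rare isoforms Cox4i2, Cox6a2, Cox6b2, Cox7a1, Cox7b2, Cox8b, Cox8c and Ndufa4l2, at 0 to 17.2 CPM. They lower it, so its distance from complexes V and III depends on them. Above 100 CPM were 11 of 20 members of complex IV and 13 of 15 of complex V. In complex V, the catalytic F1 subunit Atp5b (chromosome 10, 128083307-128090388, mm10) had the highest level of any member, at 727 CPM in the median library (572 to 837). The other F1 subunits Atp5a1 (568) and Atp5e (583) followed, and their ranges (518 to 675 and 459 to 675) overlapped with that of Atp5b. In complex IV, Cox4i1, a subunit bearing on the regulation of the enzyme, had a median of 586 CPM (427 to 724), Cox7b 524 (447 to 651) and Cox6c 479 (373 to 598). Uqcrh, the hinge protein of complex III, stood at 514 (430 to 645), and the next subunits of that complex, Uqcrb (287, 241 to 367) and Uqcr10 (247, 215 to 347), did not reach its range. In complex I the accessory subunit Ndufa6 led with 348 (302 to 428), followed by Ndufa2 (252) and Ndufa3 (239). Of complex II, the iron-sulfur subunit Sdhb stood at 206 (174 to 272), the membrane anchor Sdhd at 154 and the flavoprotein Sdha at 145. The assembly factors of complex I were all low, from Ndufaf6 at 13.7 to Ndufaf4 at 61.7.

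**Figure D1:**
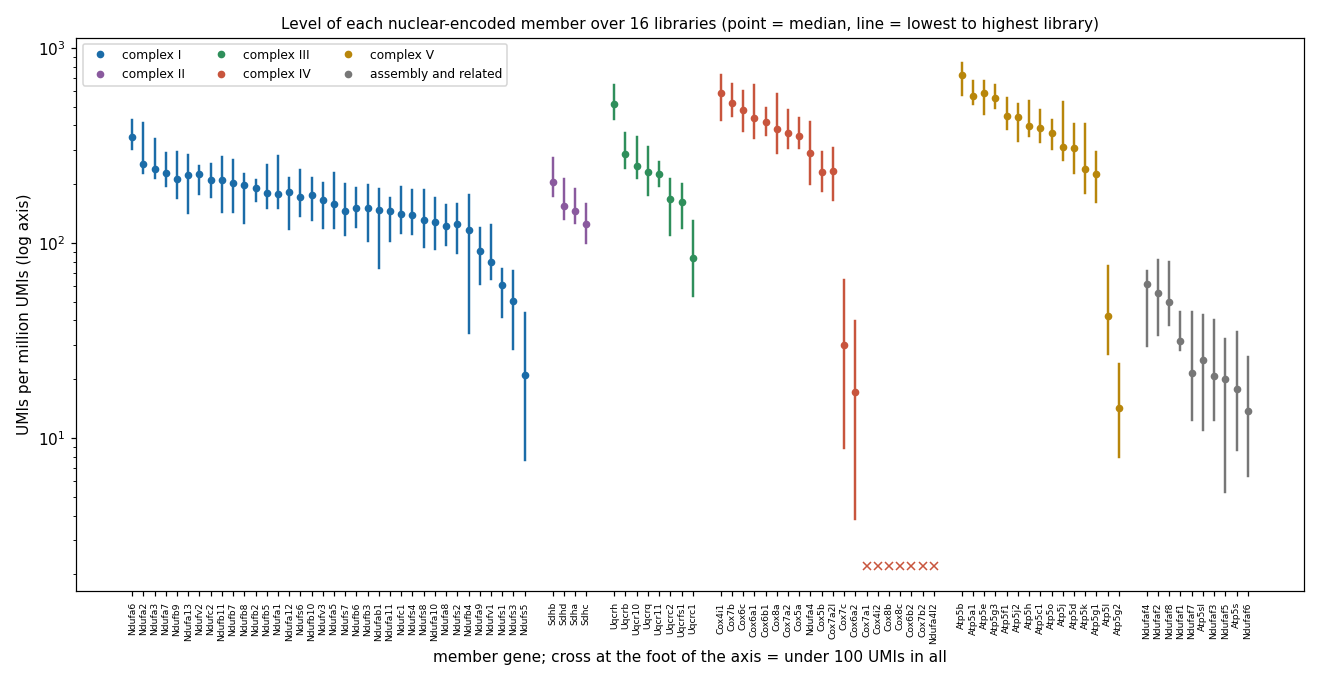
Level of each member in CPM (log axis), grouped by complex; points are medians over 16 libraries and lines run from the lowest to the highest library. Of 93 members 66 have medians above 100 CPM, and crosses at the foot mark 7 complex IV genes with under 100 UMIs in all libraries together.

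Where a subunit has tissue isoforms, 1 isoform supplied nearly all transcripts. Cox4i1 had 6158 UMIs and Cox4i2, an isoform known from lung, 11. Cox7a2 had 3874 UMIs and the muscle isoform Cox7a1 18, Cox6a1 had 4788 and the heart and muscle isoform Cox6a2 197, and Cox8a had 4081 against 1 each for Cox8b and Cox8c. Cox6b2, Cox7b2 and Ndufa4l2 had no UMI among 10437310, which allows up to 0.287 CPM (3 UMIs; counting error only), beside 4349 for Cox6b1, 5554 for Cox7b and 3167 for Ndufa4. Cox5a and Cox5b, which encode different subunits and not isoforms, had 3813 and 2488 UMIs. The c-ring of complex V, the rotor through which protons pass, is built from 1 protein encoded by Atp5g1, Atp5g2 and Atp5g3. Over the libraries Atp5g3 supplied 65.2% to 73.5% of the c-ring transcripts, Atp5g1 24.2% to 33.2% and Atp5g2 0.952% to 3.05%.

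Some members share 3′ sequence with other genes, which bears on how far their counts can be read. For 92 members with a protein-coding GENCODE transcript, the last 200 bases were searched in windows of 50 bases against the transcripts of all other genes. In 79 members no window was shared. Cox7c, a complex IV subunit with 30.1 CPM, shared 100% of its windows, Atp5l (42.1) 50.3%, Atp5g2 (14.2) 51.7% and Ndufs3 (50.5) 51.0%. Ndufs5 (21.0) shared 24.5% and Atp5g1 (226) 33.8%. Sharing and level did not run in parallel throughout: Atp5h (397) shared 30.5% and Atp5j (310) 25.2%, while the low core subunit Ndufs1 (60.5) shared none. The treatment of reads matching several genes by the authors' counting is unknown, so these levels are uncertain.

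The promoters of members held the letters of 3 known factors of nuclear respiratory gene expression at different shares. RefSeq promoters (250 bases before to 50 after the start, GRCm38.p6, the assembly of mm10) were found for 77 members and searched on both strands. The NRF1 motif GCGCANGCG was in the promoter of 28.8% of 59 members tested in the gate comparisons below, 19.2% of 1255 other genes tested there and 7.03% of all 27025 genes of the table. The ETS motif CCGGAAG, the letters read by GABP, was in 23.7%, 24.1% and 9.93% of these, and the YY1 motif AANATGGCG in 16.9%, 7.65% and 2.76%. The NRF1 and YY1 letters can overlap by their GCG ends, no motif contains another, and a match is a description and not a binding site. Of the 12 members with the YY1 letters, 9 held them 10 to 35 bases after the start. These letters contain ATG, and whether the matches lie at the start codon of the protein was not tested. Of 10 members called in a comparison below and present in the table, 4 held a motif, against 55.8% of the 77 members and 42.5% of the other tested genes. Their windows are shown on the gene's own strand, with the motif or its reverse complement in capitals, because these members carry the results that follow.
Atp5b (YY1, chr10:128083313-128083341, plus strand): acccggattcCGCCATGTTgagtcttgtg
Atp5g3 (NRF1, chr2:73911295-73911323, minus strand): agccgcaccgCGCTTGCGCgcccagcccc
Cox8a (ETS, chr19:7217605-7217631, minus strand): ttccgaaataCTTCCGGctcgggcgtc
Ndufa6 (NRF1, chr15:82354249-82354277, minus strand): cgtggcaccgCGCGTGCGCacgctgaagg
Atp5j2, a membrane subunit of complex V, and the complex I subunits Ndufs6 and Ndufs7 show the more frequent form of the YY1 letters beside the inverted one of Atp5b.
Atp5j2 (YY1, chr5:145191500-145191528, minus strand): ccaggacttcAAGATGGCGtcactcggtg
Ndufs6 (YY1, chr13:73328433-73328459, minus strand): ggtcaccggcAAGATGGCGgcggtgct
Ndufs7 (YY1, chr10:80249463-80249491, plus strand): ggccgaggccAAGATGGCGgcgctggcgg

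The summed level of the members varied little between libraries and less than that of the mitochondrially encoded mRNAs. The members' sum was 18782 CPM at the median and ran from 16644 in library 4 to 21244 in library 15, a ratio of 1.28. The mitochondrial mRNAs had a median of 26076 and ran from 21437 in library 16 to 38532 in library 10, a ratio of 1.80. The ratio of nuclear to mitochondrial transcripts thus ran from 0.526 in library 10 to 0.884 in library 16, with a median of 0.717. Among the 8 libraries above the median of mitochondrial mRNAs, 3 were also above the median of the members. The 9 libraries of sequencing batch SB341 had members' sums of 16644 to 20277 and ratios of 0.526 to 0.782, and the 6 of batch SB343 sums of 18848 to 21244 and ratios of 0.744 to 0.884; library 1 is in no batch. The ranges overlap for both measures. The share of cells in the granule gate described below was 9.21% to 27.2% in SB341 and 25.6% to 41.9% in SB343. The share in the lymphoid gate was 16.3% to 32.4% and 10.6% to 14.8%, without overlap. The part of these differences in the sums was not tested.

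**Figure D2:**
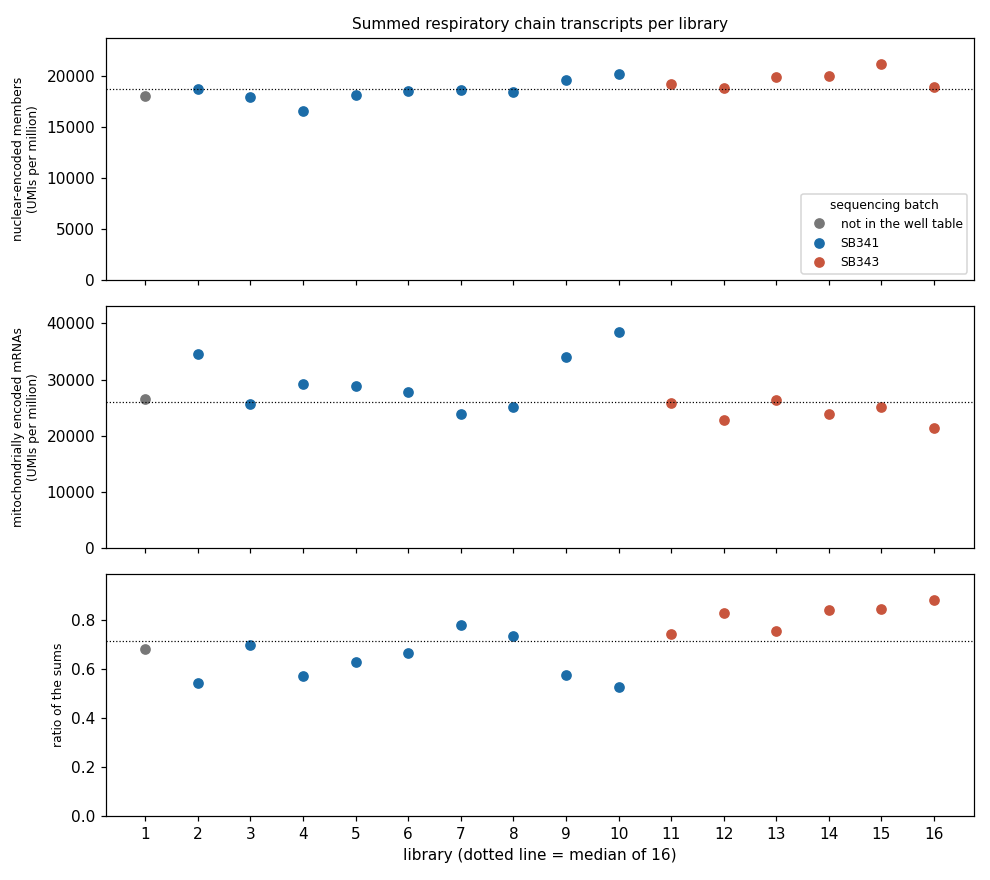
Summed CPM of the members, of the mitochondrially encoded mRNAs and their ratio in each of 16 libraries, coloured by sequencing batch, with the median as a dotted line. The members' sum stays between 16644 and 21244, while the mitochondrial mRNAs reach 38532 in library 10, where the ratio is lowest.

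Each complex stayed in a similarly narrow range, with highest-to-lowest ratios of 1.25 for complex I, 1.31 for II, 1.28 for III, 1.34 for IV and 1.30 for V. Of 82 members with at least 200 UMIs, 23 had their highest level in library 15, against 9.74% of all 6942 genes with as many UMIs, and 19 their lowest in library 4, against 10.1%. The chi-square of counts over libraries per degree of freedom, which is 1 for counting error alone, had a median of 2.55 among the members and 1.95 among all these genes.

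Ndufb4, an accessory subunit of complex I, varied most, with a chi-square per degree of freedom of 12.3. Its level was 103 to 176 CPM in the 9 libraries of SB341 (median 135) and 34.3 to 70.1 in the 6 of SB343 (median 54.6), and library 1 stood at 142. The batches did not overlap, and the median was 2.47 times as high in SB341. The difference was also seen within cell classes, described below. In granule-gated cells the values were 115 to 175 against 35.2 to 74.97, and in lymphoid-gated cells 82.8 to 169 against 12.8 to 54.9, again without overlap. In stem-gated cells (44.8 to 330 against 0 to 88.1) and megakaryocyte and erythroid-gated cells (56.2 to 280 against 23.2 to 99.6) the batches overlapped. Of the 82 members, 6 had ranges that did not overlap between the batches, 5 of them higher in SB343, against 5.72% of all genes (2.07% higher and 3.64% lower in SB343), a share near that of the members (7.32%). The 5 were Cox4i1 (427 to 599 in SB341, 623 to 724 in SB343), Cox6a1 (345 to 497, 498 to 643), Ndufa8 (97.3 to 125, 138 to 156), Ndufb9 (170 to 219, 241 to 292) and Sdhb (174 to 218, 224 to 272). Sequencing batch, plates and whatever mice or genotype mix lie behind them cannot be told apart.

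Cells were sorted into 4 classes by counting UMIs of marker genes, with at least 2 needed and more than for any other class. The stem gate (382 cells; led by Hlf, Mllt3, Pdzk1ip1 and Mecom) stands for the least committed cells, the granule gate (1194; Mpo, Prtn3 and Ctsg, proteins of neutrophil granules) for myeloid priming, the lymphoid gate (1000; Dntt, Ighm and Satb1) for lymphoid priming, and the megakaryocyte and erythroid gate (514; Apoe, Car1, Pf4 and Zfpm1) for that branch. No gate claimed 2067 cells, whose median depth was 1089 UMIs against 1592 in the stem, 2280 in the granule, 1907 in the lymphoid and 2031 in the megakaryocyte and erythroid gate. Library 14 had fewer than 10 stem-gated cells, so comparisons with that gate used 15 libraries on the stem side. UMIs were summed per library and gate and compared with edgeR's quasi-likelihood test with the library as a block; called means a Benjamini-Hochberg adjusted p under 0.05 over all 1945 genes tested. Of the 93 members, 69 passed the filter on low counts. The 24 others were the 10 assembly and related factors, Ndufs1, Ndufs3, Ndufs5, Atp5l, Atp5g2, Cox7c and the 8 rare isoforms Cox4i2, Cox6a2, Cox6b2, Cox7a1, Cox7b2, Cox8b, Cox8c and Ndufa4l2. The comparisons with the stem gate share its sums and are not independent of each other.

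The summed members were lowest in stem-gated cells and highest in megakaryocyte and erythroid-gated cells. Their median over libraries was 17051 CPM in the stem gate (15195 to 19806), 18392 in the lymphoid gate (15905 to 19545), 20018 in the granule gate (17238 to 22492) and 20221 in the megakaryocyte and erythroid gate (18343 to 24060), and all 4 ranges overlap. Within a library the sum was above that of the stem gate in 14 of 15 libraries for granule-gated, 13 of 15 for lymphoid-gated and 15 of 15 for megakaryocyte and erythroid-gated cells, with median log2 ratios of 0.23, 0.11 and 0.29. Complex V was above the stem gate in 15 of 15 libraries for each of the 3 other gates, and complex IV in 15, 15 and 14. Complex I was above it in 12, 9 and 12 of 15 libraries, complex II, whose sum rests on 4 genes, in 8, 9 and 10, and complex III in 13, 10 and 13. In megakaryocyte and erythroid-gated cells the median log2 ratio was 0.36 for complex V, 0.34 for III, 0.32 for IV, 0.19 for I and 0.15 for II. These sums carry no test, since they are built from the members chosen. They are plain CPM, while the fits below are scaled by TMM, so their ratios are not on the scale of the fits. There the median log2 fold changes of the members were 0.13, 0.08 and 0.16. For complex II in megakaryocyte and erythroid-gated cells the median was -0.06, with 1 of 4 genes positive.

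Granule-gated against stem-gated cells gave 7 members higher and 1 lower. Over all genes tested, 9.31% were called (3.96% higher and 5.35% lower), so the 8 of 69 members called lie near that share, with more of them on the higher side. The median log2 fold change was 0.13 among the members and -0.00 among all genes tested. All 7 higher members belong to complexes IV and V, from 11 and 13 members tested; the 33 of complex I, 4 of complex II and 8 of complex III gave only the lower call, Ndufa6. Whether complexes differ in this was not tested. Complexes also differ in level, with a median member at 390 CPM in V against 227 in III, 163 in I and 149 in II. The 233 of complex IV includes rare isoforms that were not tested. The part of level in where calls fall, here and in the comparisons below, was not tested.

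Atp5g1, 1 of the c-ring genes (chromosome 11, 96072793-96075694), had 67.2, 131 and 292 CPM as lowest, median and highest stem-gated value over 15 libraries and 223, 256 and 310 in granule-gated cells of 16. The ranges overlap through the highest stem-gated libraries, and the granule-gated value was higher in 14 of 15 libraries. The log2 fold change was 0.73 (SE 0.155, adjusted p = 2.8e-04, edgeR). Ndufa4, a complex IV subunit despite its name (chromosome 6, 11900372-11907450), ran from 58.4 over a median of 220 to 381 in stem-gated and from 240 over 341 to 529 in granule-gated cells. It was higher in 14 of 15 libraries, by 0.65 on the log2 scale (SE 0.126, adjusted p = 6e-05, edgeR). Cox5a, a matrix-side subunit of complex IV, had medians of 268 and 401 and rose by 0.45 (SE 0.117, adjusted p = 0.00397, edgeR), in 13 of 15 libraries. The catalytic subunit Atp5b ran from 314 over 568 to 807 in stem-gated and from 628 over 757 to 925 in granule-gated cells. It was higher in 15 of 15 libraries, by 0.32 on the log2 scale (SE 0.0829, adjusted p = 0.00382, edgeR). Cox6c, Atp5g3 and Cox4i1 rose by 0.38, 0.33 and 0.32, in 11, 13 and 12 of 15 libraries. Leaving out 1 library at a time, the call of Cox6c was lost without library 7 or 8 (adjusted p up to 0.0624), that of Atp5g3 without library 7 (0.0916) and that of Cox4i1 without library 2, 6, 7 or 13 (up to 0.0896).

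Ndufa6, the complex I subunit with the highest level, went the other way. It ran from 257 over a median of 399 to 529 in stem-gated cells and from 276 over 310 to 451 in granule-gated cells, and was lower in 12 of 15 libraries. It fell by 0.33 on the log2 scale (SE 0.111, adjusted p = 0.0454, edgeR), a call lost without any 1 of libraries 3, 4, 6, 7, 8, 9, 10, 11 and 16, with an adjusted p of up to 0.172. Within SB341 alone 4 of 69 members were called (Atp5b, Atp5g1, Cox6c and Ndufa4), all higher, a share near the 5.23% of all genes in that fit. Within SB343, with 5 stem-gated libraries and 2.21% of all genes called, the 1 call among 68 members was another member, Cox7a2l, a factor of supercomplex assembly, lower at -0.91 (SE 0.252, adjusted p = 0.0309, edgeR); over all libraries it was at -0.19 and not called. Without the filter on low counts 36 of 90 members were called, all higher, against 3.89% of all 21564 genes, while the median of all genes moved to 0.24, so that fold changes there are read against that shift.

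Megakaryocyte and erythroid-gated against stem-gated cells gave 7 members higher and none lower, again in complexes IV and V. All genes tested were called at 15.9% (4.73% higher and 11.2% lower), above the 10.1% of the members, but 7 of 7 member calls were on the higher side and 57 of 69 members had a positive log2 fold change. The median was 0.16 among the members and -0.01 among all genes. Atp5g1, which shared 33.8% of its 3′ windows with other genes, had the largest difference of any member tested. It ran from 164 over a median of 319 to 445 CPM in megakaryocyte and erythroid-gated cells, against 67.2, 131 and 292 in stem-gated cells. The ranges overlap, and it was higher in 14 of 15 libraries by 0.96 on the log2 scale (SE 0.162, adjusted p = 1.89e-06, edgeR). In SB341 and in SB343 alone the difference was 0.99 and 0.98, called in both. Within SB343 4 of 68 members were called, against 3.87% of all genes. Atp5g1, Atp5g3 (0.58) and Cox6a1 were higher, Cox6a1 by 0.72 (SE 0.199, adjusted p = 0.0199, edgeR) without a call over all libraries. Cox7a2l was lower at -0.88 (SE 0.27, adjusted p = 0.0427, edgeR), against -0.35 and no call over all libraries. Within SB341 2 of 69 members were called, Atp5g1 and Atp5b, against 6.85% of all genes. Cox5b, a zinc-binding subunit of complex IV, was higher by 0.43 (SE 0.151, adjusted p = 0.0386, edgeR), with medians of 206 and 291, and its call was lost without library 1, 2, 3 or 16 (adjusted p up to 0.106). Atp5b rose by 0.42 (medians 568 and 817, higher in 13 of 15 libraries) and Cox5a by 0.40 (268 and 375, 14 of 15). Atp5g3, Cox8a and Cox7a2 rose by 0.39, 0.37 and 0.35; the call of Cox8a was lost without library 5, 6 or 8 (adjusted p up to 0.0698). Ndufa4, called in granule-gated cells, was not called here (0.23, adjusted p = 0.29, edgeR). The difference between the 2 comparisons was not tested.

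Lymphoid-gated against stem-gated cells gave 3 members higher and none lower, at 4.35% of the members and 6.94% of all genes (3.24% higher and 3.7% lower), with medians of 0.08 and 0.02. Cox5a ran from 313 over a median of 365 to 487 CPM in lymphoid-gated cells and from 151 over 268 to 477 in stem-gated cells, and was higher in 13 of 15 libraries by 0.43 (SE 0.119, adjusted p = 0.00934, edgeR). Ndufa4 (0.39, adjusted p = 0.0472, edgeR, higher in 14 of 15 libraries) and Atp5b (0.26, adjusted p = 0.0473, edgeR, 12 of 15) stood at the threshold. Each lost its call in 12 of the 16 fits that left out 1 library, Ndufa4 without libraries 1, 2, 4, 5, 6, 7, 8, 10, 12, 14, 15 or 16 (adjusted p up to 0.139) and Atp5b without libraries 1, 3, 4, 5, 6, 7, 8, 9, 12, 14, 15 or 16 (up to 0.237). With no block for the library only Cox5a was called (adjusted p = 0.00992, edgeR).

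Granule-gated against lymphoid-gated cells gave 3 members higher and none lower, 4.35% of the members against 6.89% of all genes (3.03% higher and 3.86% lower). The medians were 0.06 and -0.01. Uqcrq, a small subunit of complex III (chromosome 11, 53427922-53430831), ran from 162 over a median of 280 to 391 CPM in granule-gated cells and from 83.8 over 202 to 292 in lymphoid-gated cells. It was higher in 15 of 16 libraries by 0.45 (SE 0.111, adjusted p = 0.00388, edgeR), by 0.59 within SB341 and 0.18 within SB343, where it was not called. The c-ring genes Atp5g1 (0.40, adjusted p = 0.0095, edgeR) and Atp5g3 (0.25, adjusted p = 0.015, edgeR) were each higher in 14 of 16 libraries; without library 5 the adjusted p of Atp5g3 was 0.0503. With no block for the library only Atp5g1 was called (adjusted p = 0.0335, edgeR).

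**Figure D3:**
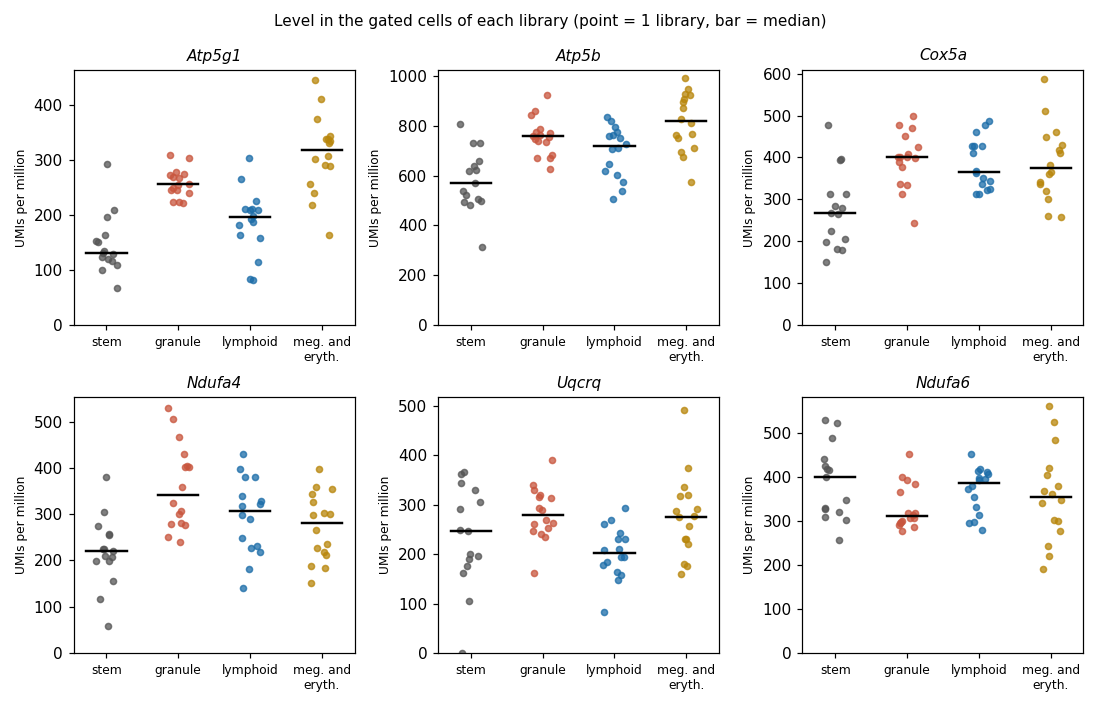
CPM of 6 members in the gated cells of each library; each point is 1 library and each bar the median. Atp5g1 has medians of 131, 256, 196 and 319 in the stem, granule, lymphoid and megakaryocyte and erythroid gates, while Ndufa6 has its highest median, 399, in the stem gate.

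The share of each c-ring gene was also taken within the gates. Atp5g1 supplied a median of 22.0% of c-ring UMIs in stem-gated (12.8% to 35.7% over libraries), 26.2% in lymphoid-gated (14.3% to 40.5%), 29.3% in granule-gated (23.5% to 34.4%) and 30.8% in megakaryocyte and erythroid-gated cells (23.6% to 42.2%). The ranges overlap, and the shares carry no test. Atp5g1 and Atp5g2 shared 33.8% and 51.7% of their 3′ windows with other genes and Atp5g3 none, so these percentages are uncertain. Among the 3 members with the most UMIs of each complex, Atp5b, Cox4i1, Cox6c and Ndufa6 were called in at least 1 gate comparison, as given above, and the others that were tested in none. Of the others and of further complex IV subunits, Atp5a1 and Atp5e had log2 fold changes of -0.07 to 0.13 in the 4 gate comparisons, Uqcrh -0.17 to 0.11, Ndufa2 -0.01 to 0.08, Ndufa3 -0.06 to 0.11, Cox7b 0.06 to 0.23, Cox6a1 0.02 to 0.27 and Cox6b1 0.04 to 0.23. These are values over all libraries, and Cox6a1 was called within SB343 alone, as given above. Sdhd, the membrane anchor of complex II, reached 0.53 in megakaryocyte and erythroid-gated cells (SE 0.197, adjusted p = 0.0529, edgeR), short of the threshold, while Sdhb was at -0.19 and Sdha at -0.05.

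**Figure D4:**
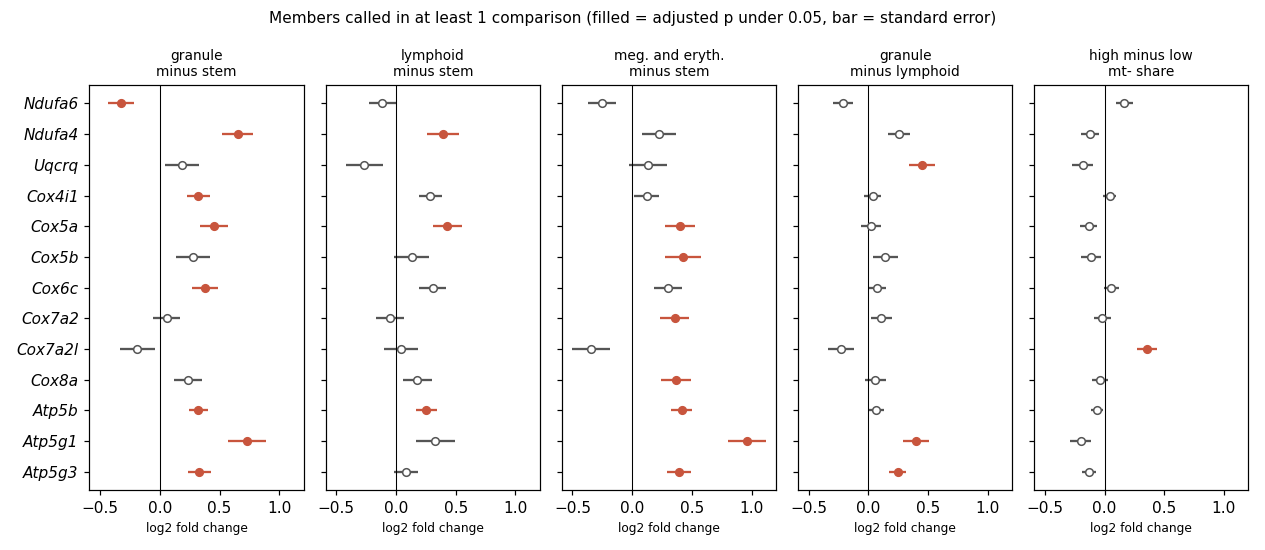
Log2 fold changes with standard errors of the 13 members called in at least 1 of 5 comparisons; filled points are called at an adjusted p under 0.05. Atp5g1 reaches 0.96 in megakaryocyte and erythroid-gated cells, and Ndufa6 in granule-gated cells is the lower call among these points.

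The rare isoform Cox6a2 (chromosome 7, 128205435-128206366), known from heart and skeletal muscle, was concentrated in lymphoid-gated cells. Of its 197 UMIs, 150 were in lymphoid-gated cells, 63.9 CPM (exact Poisson 95% interval 54.1 to 75.02), against 28 or 8.55 CPM (5.68 to 12.4) in granule-gated, 3 or 4.11 (0.848 to 12.01) in stem-gated and 1 or 0.755 (0.0191 to 4.21) in megakaryocyte and erythroid-gated cells. The intervals cover counting error only. Over libraries the lymphoid-gated level ran from 0 over a median of 57.5 to 147 CPM, and it exceeded the granule-gated level in 15 of 16 libraries and the stem-gated level in 14 of 15. In the other library of the latter comparison both were 0. At least 1 UMI was seen in 95 of 1000 lymphoid-gated cells (9.5%), with up to 8 in a cell, in 24 of 1194 granule-gated cells (2.01%), 3 of 382 stem-gated cells (0.785%) and 1 of 514 megakaryocyte and erythroid-gated cells (0.195%); granule-gated cells were the deeper ones, with a median of 2280 UMIs against 1907. Cox6a2 missed the filter on low counts and was tested only in the fit without it. There the granule minus lymphoid difference was -2.56 on the log2 scale (SE 0.322, adjusted p = 1.29e-11, edgeR), where the median of all genes was 0.05. In that fit Cox6a2 was also higher in lymphoid-gated than in stem-gated cells, by 3.89 (SE 0.532, adjusted p = 1.24e-10, edgeR). Other members were called in that comparison too, and its stem side rests on 3 UMIs. No other member was called lower in any of the 5 comparisons, a count that depends on which class is subtracted. None of its 3′ windows was shared with another gene. Cox6a1, the isoform that supplies most of this subunit, differed by 0.15 between granule-gated and lymphoid-gated cells (adjusted p = 0.399, edgeR).

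The mitochondrially encoded mRNAs had few calls outside the megakaryocyte and erythroid gate, where every call was lower. Of the 13, 9 were tested; mt-Nd6 had no UMI, and mt-Atp8, mt-Nd4l and mt-Nd3 had 23, 58 and 161. In megakaryocyte and erythroid-gated against stem-gated cells 5 of 9 were lower and none higher. Over all genes tested in that comparison, 11.2% were lower and 4.73% higher, so lower calls were the more frequent there in general. The complex IV subunits mt-Co1 and mt-Co2 fell by 0.33 (adjusted p = 6.9e-06, edgeR) and 0.61 (adjusted p = 4.55e-04, edgeR) on the log2 scale, in 13 of 15 libraries each. The complex I subunits mt-Nd5 and mt-Nd4 fell by 0.26 and 0.16, and mt-Cytb of complex III by 0.16; the call of mt-Nd4 was lost without library 5, 7, 12, 13 or 16 (adjusted p up to 0.0777). The summed mitochondrial mRNAs were above the stem gate in only 6 of 15 libraries, with a median log2 ratio of -0.02, and the nuclear to mitochondrial ratio was above it in 14 of 15, with a median of 0.682 in the stem gate and 0.819 in the megakaryocyte and erythroid gate. The mitochondrial sum was above the stem gate in 11 of 15 libraries for granule-gated cells (median log2 ratio 0.13) and 8 of 15 for lymphoid-gated cells (0.05). It was above the lymphoid gate in 11 of 16 for granule-gated cells (0.04), each time the direction of the members' sums. These sums are plain CPM led by a few abundant mRNAs, while the fits are scaled by TMM. In the fits 3, 3 and 5 of the 9 mRNAs had positive log2 fold changes in these comparisons. Their medians were -0.09, -0.04 and 0.005, against 0.13, 0.08 and 0.06 among the members. In granule-gated cells mt-Nd1 alone was called, higher by 0.17 against stem-gated (adjusted p = 0.00195, edgeR) and by 0.15 against lymphoid-gated cells (adjusted p = 0.00205, edgeR). Of all genes tested, 9.31% and 6.89% were called in these comparisons. In lymphoid-gated against stem-gated cells none of the 9 was called by edgeR, and none had an unadjusted p under 0.05. Of all genes tested, 6.94% were called there.

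Cells with a high share of mitochondrial UMIs, rRNAs included, did not have a higher summed level of the nuclear-encoded members. In each library, kept cells were put into 4 bins by UMIs other than mitochondrial ones. The upper tertile by mitochondrial share was compared with the lower tertile of each bin, leaving mitochondrial entries out of sums and tests. The share counts all mitochondrial entries, with a library median of 102940 CPM, against 75196 for the rRNAs and 26076 for the mRNAs. Library 10 had the highest mRNA sum (38532) and the lowest rRNA sum (52877). The comparison therefore does not single out the mRNAs. Of 75 members tested 1 was higher, 1.33%, against 4.38% of all 3565 genes (3.14% higher and 1.23% lower), and 46 of the 75 had a negative log2 fold change. The medians were -0.04 and 0.01. The summed members were lower in cells of high mitochondrial share in 16 of 16 libraries, with medians of 20063 and 21731 CPM and log2 ratios of -0.22 to -0.03. The member called was Cox7a2l (chromosome 17, 83501917-83514333), which ran from 190 over a median of 276 to 456 CPM in cells of high share and from 163 over 222 to 335 in cells of low share. It was higher in 14 of 16 libraries by 0.35 (SE 0.0854, adjusted p = 0.00427, edgeR). Within SB341 it was higher by 0.41 and called, within SB343 by 0.28 and not called, and with no block for the library no member was called by edgeR (Cox7a2l adjusted p = 0.233), while 4 had an unadjusted p under 0.05. Without depth bins 12 members were called, 3 higher and 9 lower, among them Cox7a2l.

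**Figure D5:**
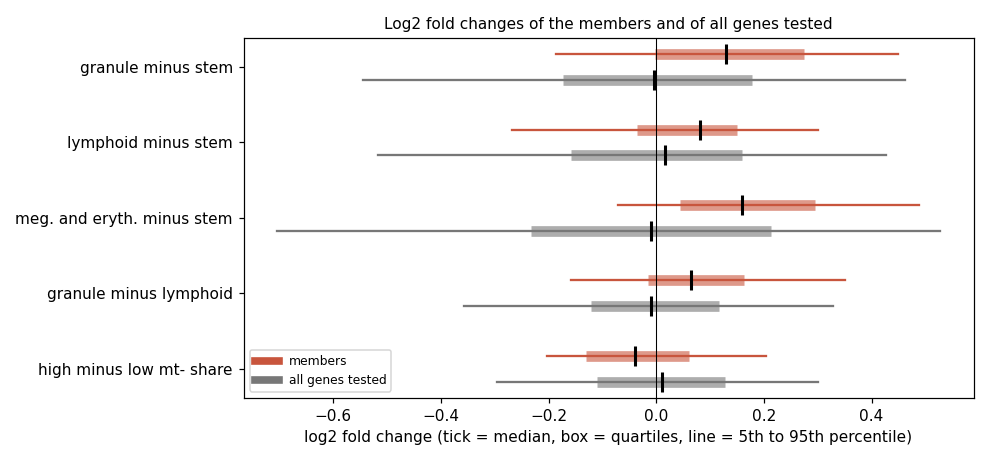
Log2 fold changes of the members (69 in the gate comparisons, 75 in that of mitochondrial share) and of all genes tested, with medians, quartiles and 5th to 95th percentiles. The members' median lies at 0.16 in megakaryocyte and erythroid-gated cells and at -0.04 in cells of high mitochondrial share.

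Other genes of mitochondrial energy metabolism were counted in the same fits. Among carriers and regulators of the chain, Slc25a5, an ADP/ATP carrier of the inner membrane, was higher in granule-gated (0.53) and megakaryocyte and erythroid-gated (0.34) than in stem-gated cells, and Atpif1, the inhibitor of ATP hydrolysis by complex V, was higher in the latter by 0.73 (adjusted p = 2.77e-09, edgeR). Of 10 such genes tested, 1 was higher in granule-gated, none in lymphoid-gated and 2 in megakaryocyte and erythroid-gated against stem-gated cells, and Etfb, which passes electrons from fatty acid oxidation, was lower in lymphoid-gated cells by a log2 fold change of -0.58. Against lymphoid-gated cells, 3 of the 10 were higher in granule-gated cells (Etfb 0.46, Atpif1 0.34, Slc25a5 0.25). Of 7 assembly factors outside the member rule, none was called against the stem gate by edgeR (1, 2 and 0 at an unadjusted p under 0.05), and Cmc1, a factor of complex IV assembly, was higher by 0.67 in granule-gated than in lymphoid-gated cells. Against the stem gate, of 25 mitochondrial ribosomal protein genes 2, 0 and 3 were higher and 0, 1 and 0 lower, with Mrpl12 at 0.67 and 0.68 in granule-gated and megakaryocyte and erythroid-gated cells. Their median log2 fold changes were 0.11, -0.01 and 0.31, with 14, 12 and 18 of 25 positive. Those of the 10 carriers and regulators were 0.10, 0.01 and 0.20, with 8, 7 and 9 positive. The members' medians were 0.13, 0.08 and 0.16. None of 11 genes of the tricarboxylic acid cycle and none of 7 mitochondrial import genes was called in any of the 4 gate comparisons by edgeR, while 2, 2, 0 and 0 of the former and 1, 0, 0 and 2 of the latter had an unadjusted p under 0.05, in the order of the comparisons above with granule against stem, lymphoid against stem, megakaryocyte and erythroid against stem and granule against lymphoid. Of 8 glycolysis genes 3 were higher in granule-gated cells (Pgam1 0.75, Pgk1 0.48, Ldha 0.37). In megakaryocyte and erythroid-gated cells Ldha was higher by 0.68 and Pkm lower, at -0.70.

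Cell cycle genes and markers of other cell types were summed in the same gates. The genes of S phase entry summed to a median of 2588 CPM in stem-gated (2014 to 3398), 3263 in granule-gated (2589 to 4035), 2936 in lymphoid-gated (2120 to 3201) and 3432 in megakaryocyte and erythroid-gated cells (2438 to 4173). The ranges overlap, and 1, 0 and 0 of 15 such genes were called against the stem gate by edgeR, with 4, 0 and 3 at an unadjusted p under 0.05. Positive log2 fold changes were seen in 15, 12 and 13 of the 15, with medians of 0.28, 0.09 and 0.28 (members 0.13, 0.08 and 0.16). Of 16 genes of G2 and mitosis 7, 14 and 14 were positive, with medians of -0.07, 0.28 and 0.28, and 0, 0 and 1 were called higher. In granule-gated against lymphoid-gated cells 14 of 15 and 1 of 16 were positive, with 2 of the latter called lower. By mitochondrial share, 9 of 19 genes of S phase entry were lower in cells of high mitochondrial share while 24 of 74 cytosolic ribosomal protein genes were higher there. In megakaryocyte and erythroid-gated cells 24 of 65 cytosolic ribosomal protein genes were lower. Of 10 erythroid and platelet genes 9 had a UMI and Alas2 none, and their sum was 90.5 to 954 CPM in stem-gated against 36.6 to 239 in granule-gated, 10.97 to 272 in lymphoid-gated and 37.5 to 1560 in megakaryocyte and erythroid-gated cells, with medians of 362, 120, 75.5 and 93.6. Hbb-bt, a beta-globin gene and the most counted of them, was lower than in stem-gated cells in all 3 comparisons, with log2 fold changes of -1.59 (adjusted p = 1.2e-09) in granule-gated, -2.19 (adjusted p = 2.81e-14) in lymphoid-gated and -2.20 (adjusted p = 1.13e-12) in megakaryocyte and erythroid-gated cells (edgeR). Mature neutrophil and macrophage genes (13 of 14 with a UMI, Ltf with none) summed to at most 244 CPM in any library and gate, mature B cell genes (5 of 8; Cd79a, Iglc1 and Iglc2 with none) to 183, endothelial and stromal genes (7 of 9; Cdh5 and Lepr with none) to 293, and T and NK cell genes (9 of 11; Cd3d and Cd3e with none), led by Nkg7, to 336. The part of these values, and of the depth of the gates, in the members' differences was not tested.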

How the data were processed

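Single LSK cells were profiled by MARS-seq, per the labels' protocols. The authors deposited UMI counts per gene and well, without normalization, for 16 libraries of 384 wells, with a well table (sequencing batch, cells per well) covering 15 of them. The submitters' processing notes name bcl2fastq 2.15.0.4 and mm10. Aligner, counting tool, strand and annotation were not given in the sources used here. Wells were kept with at least 500 UMIs without the 92 ERCC entries, under 20% mitochondrial UMIs and no entry as empty; 86 wells exceeded the mitochondrial maximum. The well table lists 1 cell or none per well, and doublets were not called. Libraries shared no well name.

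Counts were summed over at least 10 cells per library and gate and tested with edgeR 4.0.16 (TMM, filterByExpr, glmQLFTest, library as block, gate markers not tested), with DESeq2 1.42.0 as an alternative. The pairing comes from the plate, since the gates of a library are cells of 1 plate. Over 120 pairs of libraries the chi-square per degree of freedom was 1.60 to 10.8, so none was taken as a copy of another. The gate fit was also run on simulated counts with the same dispersion for every gene, a check of the code and not of the spread in these data. Named are every called member, the 3 members of each complex with the most UMIs, isoform sets, members without UMIs and the largest called genes of pathway lists; Ndufb4, the batch ranges, the library extremes and the room given to Cox6a2 were chosen after their values were seen. Members, lists, gates and rules were chosen with earlier results of these data known. R 4.3.3 and Python 3.11.15 were used.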

Additional observations from a re-analysis of the deposited data

How the results depend on the processing

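Counts of called members are given in the order granule against stem (8), lymphoid against stem (3), megakaryocyte and erythroid against stem (7), granule against lymphoid (3) and high against low mitochondrial share (1), all by edgeR unless stated. Leaving out 1 library at a time gave 5 to 10, 1 to 4, 6 to 10, 2 to 6 and 1 to 2. Granule against stem fell to 5 without library 7, lymphoid against stem to 1 without library 1, 4, 5, 6, 7, 8, 12, 14 or 16, and granule against lymphoid rose to 5 without library 4, 7 or 10 and to 6 without library 13. With no replicate block the counts were 7, 1, 6, 1 and 0, so the block changed lymphoid against stem, granule against lymphoid and mitochondrial share by over 1.5 times. Thinning every cell to 500 UMIs before gating gave 0 in each comparison, where 2 members could be tested in the gates and 41 by mitochondrial share; 0, 0, 0, 0 and 2 of these had an unadjusted p under 0.05. Summing gated cells after thinning, an alternative chosen after seeing the data, left 14 members tested and 2, 0, 2 and 0 called, with 2, 2, 5 and 0 at an unadjusted p under 0.05. With at least 3 marker UMIs the counts were 4, 1, 5 and 6. Without the filter on low counts they were 36, 13, 12, 4 and 1, with medians of all genes at 0.24, 0.19, 0.06, 0.05 and 0.02. Within SB341 they were 4, 0, 2, 2 and 1, and within SB343 1, 0, 4, 0 and 0; the members with an unadjusted p under 0.05 behind these zeros were 7 in SB341 and 6, 5 and 6 in SB343. Lymphoid against stem gave 1 with DESeq2 size factors, with DESeq2 and with a minimum of 300 UMIs. By mitochondrial share, a minimum of 1000 UMIs gave 0 (14 at an unadjusted p under 0.05) and fitting without depth bins 12.

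Thinning turned the log2 fold change of Atp5g3 to -0.76, -0.53 and -0.052 (granule against stem, megakaryocyte and erythroid against stem, granule against lymphoid), of Atp5b to -0.31 (lymphoid against stem) and of Cox7a2l to -0.12, and fitting without the filter turned that of Ndufa6 to 0.077; the cause was not tested. Over the called genes, 304 of 352 values with a library left out and 157 of 238 other values kept direction and call. A mitochondrial maximum of 10% moved the members' median library sum from 18782 to 19975 and the ratio to 0.851, and dividing by UMIs without mitochondrial ones gave 21012. The stem gate rests on 382 cells, and 24 members were under the filter on low counts in the gates, 3 of them without a UMI.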
